A study of Mus musculus with 10 samples.

Results

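The miR-132 and miR-212 cluster comprises 4 mature microRNAs, mmu-miR-132-3p, mmu-miR-132-5p, mmu-miR-212-3p and mmu-miR-212-5p, which are the arms of 2 neighbouring hairpins of the mouse genome. They were taken by name from a small RNA count table and were 4 of its 2015 microRNA rows, of which 1302 are mature microRNAs, and 4 of its 6968 rows in all. The table covers 10 libraries of CD43-negative splenic B-cells. These came from wt mice, from 3'RR-deficient mice, in which the regulatory region at the 3' end of the IgH (immunoglobulin heavy chain) locus is deleted, and from Eµ-deficient mice, which lack the intronic enhancer of that locus. Per the labels every culture lasted 2 days, either in medium alone (non-stimulated) or with 5 µg per ml lipopolysaccharide (LPS), a bacterial activator of B-cells that engages Toll-like receptor 4. That dose is the one given for each stimulated sample, while the protocol text of the same record has 5 mg per ml. The wt and 3'RR-deficient groups had 2 libraries in each condition and the Eµ-deficient group had 1. Each library pooled the cells of 2 mice, so the spread between replicates is a spread between pools. All mice were adults of the 129 background per the methods of the study, which call the Eµ line EµMAR-deficient and speak of cells taken before and after LPS rather than cultured without it. The study elsewhere describes the Eµ line as short of follicular B-cells. If cells were taken before LPS here too, an effect of the culture itself would be part of the LPS comparison.

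MicroRNAs guide Argonaute proteins to messenger RNAs, mostly through the seed, bases 2 to 8 of the mature strand. A hairpin gives a 5p and a 3p strand, of which often only one is retained in Argonaute while the other is degraded. The genes of miR-132 and miR-212 are transcribed together, and the cluster is best known from neurons, where the transcription factor CREB switches it on after synaptic activity. In monocytes and macrophages miR-132 is one of the microRNAs that rise after Toll-like receptor signalling. Its known targets include the acetylcholinesterase Ache, the acetyltransferase Ep300 and, in B-cell development, the transcription factor Sox4.

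Both hairpins lie on the plus strand of chromosome 11 (build mm10, which is GRCm38). Mir212 spans chr11:75173388-75173478 and Mir132 spans chr11:75173682-75173747, with 203 bases between them. In GENCODE M21 both fall in intron 1 of the noncoding gene 1700016P03Rik (75172560 to 75177633) and in none of its exons, between Hic1, whose nearest base is 3868 bases upstream, and Ovca2, whose nearest base, its 3' end on the minus strand, is 2194 bases beyond Mir132. RefSeq (GRCm38.p6) held all 4 mature sequences, at the positions given in the count table. They are shown because the seed, in capitals, divides them into 3 groups:

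mmu-miR-132-3p: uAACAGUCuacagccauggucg

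mmu-miR-212-3p: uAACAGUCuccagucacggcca

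mmu-miR-132-5p: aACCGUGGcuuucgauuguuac

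mmu-miR-212-5p: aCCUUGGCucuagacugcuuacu

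The 3p strands, at chr11:75173723-75173744 (miR-132) and chr11:75173443-75173464 (miR-212), share one seed, and no other of the 1738 mature entries of the RefSeq table has it. They are identical in 17 of 22 bases, including the first 9 from the 5′ end. Counted from that end, miR-212-3p differs from miR-132-3p by A10C, C14U, U17C, U20C and G22A. The 5p strands, at chr11:75173686-75173707 (miR-132) and chr11:75173403-75173425 (miR-212), each have a seed that no other entry has. When miR-212-5p is shifted by 1 base, 14 of 21 aligned bases are the same. The GC content was 50% in miR-132-3p, 54.5% in miR-212-3p, 45.5% in miR-132-5p and 47.8% in miR-212-5p. The hairpins that give the strands are shown with their arms in capitals, 5p first:

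Mir132: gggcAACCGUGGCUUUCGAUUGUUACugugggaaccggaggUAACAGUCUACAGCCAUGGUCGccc

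Mir212: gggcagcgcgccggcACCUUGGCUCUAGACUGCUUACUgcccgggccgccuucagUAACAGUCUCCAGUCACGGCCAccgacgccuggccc

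The libraries held between 3482540 and 18144016 counts, of which microRNAs took from 51.4% (Eµ-deficient with LPS) to 82.1%. Levels are given as CPM (counts per 1000000), which scales each count to the microRNA total of its library with a TMM correction. The second non-stimulated libraries of wt and 3'RR-deficient cells departed from the first in a shared way, with r = 0.66 between their log2 differences across 696 microRNA rows, so the main results are also given with these libraries left out. They were the smallest libraries, at 3482540 and 3756662 counts against 15073103 and 11915044 in the first ones. Their microRNA share was 63.9% and 67.5% against 82.1% and 81.0%, and their TMM factors were 1.35 and 1.33 against 0.72 and 0.78. All 5 lymphoid markers (miR-150-5p, both miR-142a arms, miR-155-5p and miR-181a-5p) were present in every library, with a summed level of 89738 to 255683 CPM without and 87969.5 to 154287 CPM with LPS. The sum covers markers that differed in direction. The level of miR-150-5p was 21579 to 56331 CPM without and 7077 to 10107 CPM with LPS, that of miR-181a-5p 18496 to 46254.5 CPM and 5453 to 9115 CPM, and that of miR-155-5p 6216 to 8083 CPM and 27430.2 to 100675 CPM. Among them miR-142a-5p differed between those replicates, at 177521 and 84922 CPM in the first and 7357 and 6191 CPM in the second non-stimulated libraries of wt and 3'RR-deficient cells. The 2 myeloid markers, both arms of miR-223, summed to 478.9 to 5031 CPM without and 82.4 to 511.9 CPM with LPS. Of the 2 neuronal markers, which summed to at most 3.33 CPM, miR-124-3p was at 0 counts in all 10 libraries. The 4 epithelial markers (miR-141-3p, miR-200a-3p, miR-200b-3p and miR-200c-3p) summed to 921.9 to 2172 CPM without and 598.7 to 766.1 CPM with LPS. The part of other cells in the levels of the cluster was not tested. In these bulk libraries fewer cells of a type and less RNA per cell cannot be told apart.

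All 4 strands were detected in each of the 10 libraries, and miR-132-3p was by far the most abundant, with 80.7% of the 16188 counts of the cluster against 8.67% for miR-132-5p, 5.74% for miR-212-3p and 4.91% for miR-212-5p. The Eµ-deficient LPS library gave 7183 of these counts. The order of the rarer strands differed between libraries. In wt non-stimulated replicate 1, miR-132-5p had 265 counts against 41 for miR-212-3p and 44 for miR-212-5p. In 3'RR-deficient LPS replicate 1 it had 36 against 106 and 60. Among mature microRNAs of a library miR-132-3p ranked between 87th and 170th by count, and miR-212-3p between 213th and 601st. The fewest counts in a library were 289 for miR-132-3p and 36 for miR-132-5p, while both strands of miR-212 had a library with 6 counts, so their levels are the least precise.

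With LPS the 2 strands that share a seed were higher than without it. The level of miR-132-3p without LPS was 72.2 and 96.2 CPM in wt, 68.4 and 100.4 CPM in 3'RR-deficient and 116.0 CPM in Eµ-deficient cells. With LPS it was 132.1 and 173.8 CPM in wt, 216.1 and 173.5 CPM in 3'RR-deficient and 534.2 CPM in Eµ-deficient cells. Every LPS library thus lay above every non-stimulated one, and the Eµ-deficient LPS library lay far above the other 4. How many of all microRNA features separate the conditions in this way was not counted. A fit of the 10 libraries with terms for genotype and stimulation gave a 2.40-fold rise over all genotypes, 1.26 on the log2 scale (SE 0.38, adjusted p 0.0285 by edgeR's quasi-likelihood test).

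For miR-212-3p the levels without LPS were 4.60 and 7.99 CPM in wt, 2.64 and 3.55 CPM in 3'RR-deficient and 0.621 CPM in Eµ-deficient cells. They were 17.7 and 10.4 CPM in wt, 23.4 and 16.1 CPM in 3'RR-deficient and 39.1 CPM in Eµ-deficient cells with LPS. The conditions again did not overlap, and the Eµ-deficient libraries were the lowest without and the highest with LPS. The rise was 5.89-fold, or 2.56 on the log2 scale (SE 0.70, adjusted p 0.0195). Its size rests in part on the Eµ-deficient non-stimulated library, which had 6 counts (0.738 CPM before TMM scaling, 95% Wilson interval 0.338 to 1.61). Without that library the log2 fold change was 1.84 (adjusted p 0.0474), and without the Eµ-deficient LPS library it was 1.93 (adjusted p 0.0495).

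The 5p strands gave no call in this fit, though miR-212-5p was called under some of the alternatives given below. For miR-212-5p the levels without LPS were 4.94 and 8.33 CPM in wt, 2.77 and 1.78 CPM in 3'RR-deficient and 7.87 CPM in Eµ-deficient cells, and with LPS 8.13 and 8.43, 13.3 and 17.2, and 29.8 CPM in the same order. Only wt replicate 1 with LPS fell below the highest non-stimulated library, and the log2 fold change of 1.60 (SE 0.58, adjusted p 0.0675) did not pass. The level of miR-132-5p went from 29.8 and 25.0 CPM to 25.4 and 13.0 CPM in wt and from 26.2 and 21.3 CPM to 7.96 and 18.3 CPM in 3'RR-deficient cells. In Eµ-deficient cells it went the other way, from 13.1 to 25.2 CPM. The conditions overlapped, and over all genotypes the fit gave -0.37 (SE 0.48, adjusted p 0.649).

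**Figure D1:**
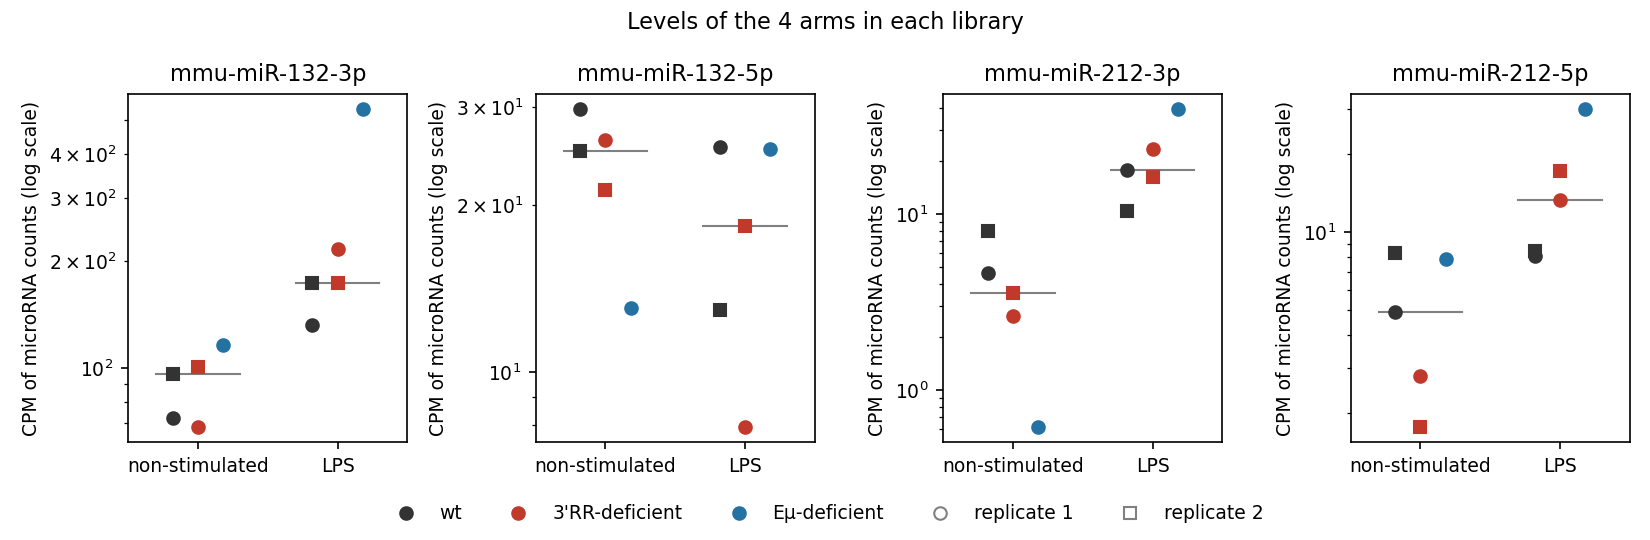
Level of each strand (CPM of microRNA counts, log axis) in the 10 libraries, without and with LPS, coloured by genotype, with a marker for each replicate number and a grey line at the median of 5 libraries. Both 3p strands lie higher in each LPS library than in each non-stimulated one after TMM scaling, whereas miR-132-5p overlaps. This separation was not counted over all features.

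In this comparison 2 of the 4 strands were called, and 18.8% of the 988 microRNA features tested were called in either direction (117 higher and 69 lower). The median log2 fold change was 1.43 over the 4 strands and 0.09 over all features. The call of miR-132-3p was the less stable one over the leave-one-out fits. With all RNA classes tested together neither strand was called (0.66, adjusted p 0.210 for miR-132-3p and 2.05, adjusted p 0.0510 for miR-212-3p), and without a filter on low counts miR-132-3p was not (1.12, adjusted p 0.127). Of the 10 fits that each left out 1 library, miR-132-3p passed in 2, those without the second non-stimulated library of wt or of 3'RR-deficient cells, with log2 fold changes between 0.94 and 1.39 and adjusted p-values between 0.0162 and 0.132. The call of miR-212-3p stayed in 8 of 10 and was lost without 3'RR-deficient non-stimulated replicate 1 (adjusted p 0.0625) and without wt LPS replicate 1 (adjusted p 0.0570), with log2 fold changes between 1.84 and 2.92. With both second non-stimulated libraries left out, the changes were 1.54 (adjusted p 0.00118) for miR-132-3p, 3.03 (adjusted p 0.00356) for miR-212-3p and 1.63 (adjusted p 0.0170) for miR-212-5p. With both first ones left out they were 0.91 (adjusted p 0.160), 2.21 (adjusted p 0.0761) and 1.20 (adjusted p 0.265). Without the Eµ-deficient libraries miR-132-3p changed by 1.03 (adjusted p 0.0875) and miR-212-3p by 1.93 (adjusted p 0.0375).

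The scaling also mattered for the lack of overlap. In CPM without TMM scaling, miR-132-3p ranged from 52.0 to 137.7 without and from 121.7 to 654.7 with LPS, and miR-212-3p from 0.738 to 10.8 and from 8.26 to 47.9, so both overlapped between the conditions. With this total count scaling the log2 fold change of miR-132-3p was 1.07 and lost its call (adjusted p 0.115), whereas miR-212-3p remained called at 2.41 (adjusted p 0.0408).

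Within a single genotype no strand passed, at a background of 0.694% of 720 features called in wt and 0.972% in 3'RR-deficient cells. In wt the log2 response to LPS was 0.87 (SE 0.63, adjusted p 0.457) for miR-132-3p, 1.21 (SE 0.81, adjusted p 0.409) for miR-212-3p, 0.35 (SE 0.78, adjusted p 0.833) for miR-212-5p and -0.43 (SE 0.72, adjusted p 0.766) for miR-132-5p. In 3'RR-deficient cells miR-212-3p changed by 2.66 (SE 0.85, adjusted p 0.145) and miR-212-5p by 2.64 (SE 0.83, adjusted p 0.145). The unadjusted p-values of these 2 were 0.0103 and 0.00987, and with the DESeq2 Wald test both passed (adjusted p 0.0221 and 0.0165), beside 97 features called by that test against 7 by edgeR. With a replicate block fitted separately in each condition, miR-132-3p (1.58, adjusted p 0.0338) and miR-212-3p (3.40, adjusted p 0.0149) passed in 3'RR-deficient cells, where that fit called 90 features. For miR-132-3p the response in 3'RR-deficient cells was 1.18 (SE 0.63, adjusted p 0.341) and for miR-132-5p -0.96 (SE 0.72, adjusted p 0.510). Between the single Eµ-deficient libraries, with no test, the log2 ratio of LPS to non-stimulated was 2.20 for miR-132-3p, 5.42 for miR-212-3p, 1.88 for miR-212-5p and 0.93 for miR-132-5p.

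**Figure D2:**
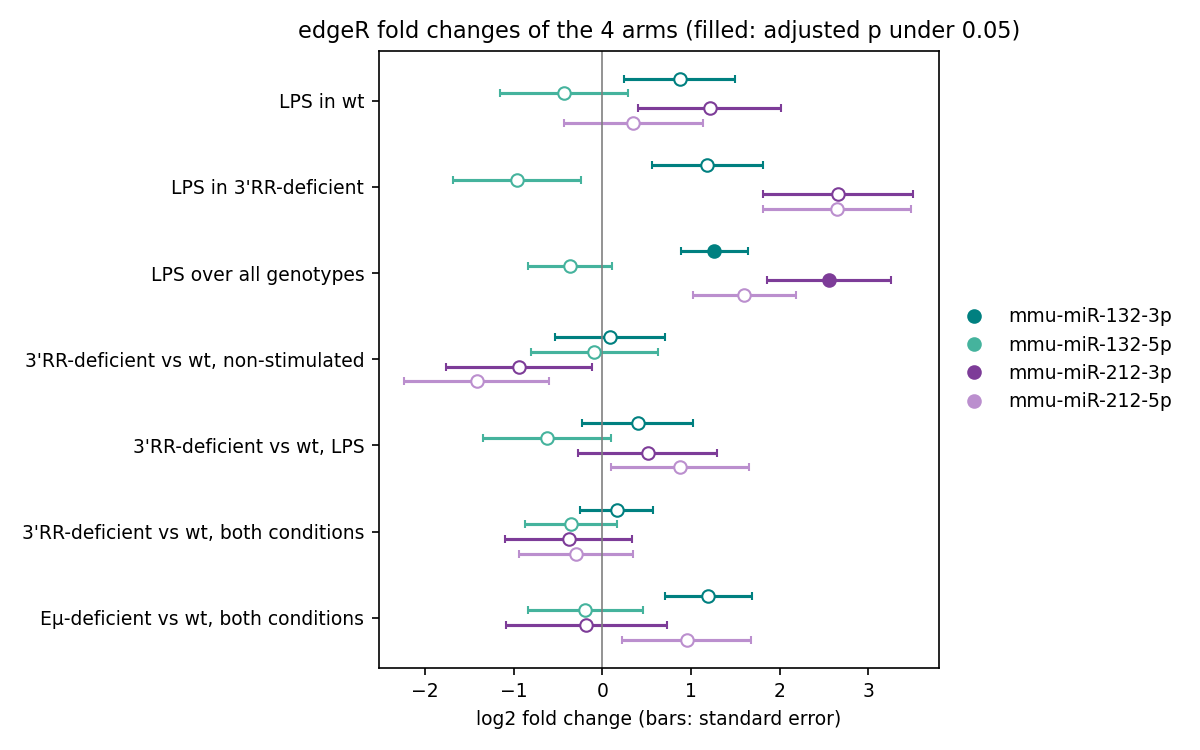
Log2 fold change of each strand with its standard error (edgeR) in 7 comparisons, filled where the adjusted p is under 0.05. The filled points are miR-132-3p (1.26) and miR-212-3p (2.56) for LPS over all genotypes.

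Ratios of counts within a library do not depend on its depth or scaling, and they were compared between conditions by exact permutation within genotype (72 arrangements, two-sided, smallest possible p 0.0278). The question was whether the strands of a hairpin, and the hairpins of the cluster, moved in proportion. The ratio of miR-132-3p to its 5p partner was 2.43 and 3.85 in wt, 2.62 and 4.71 in 3'RR-deficient and 8.89 in Eµ-deficient cells without LPS. With LPS it was 5.20 and 13.4, 27.1 and 9.48, and 21.2 in the same order. Within each genotype the LPS libraries lay above the non-stimulated ones, while across genotypes 4 of 5 LPS libraries lay above all non-stimulated ones. Averaged on the log2 scale over 5 libraries, it was 2.00 ± 0.75 (SD) in the absence and 3.70 ± 0.94 (SD) in the presence of LPS, a 3.26-fold higher ratio (exact permutation p 0.0278, adjusted p 0.111 over 4 ratios). The smallest possible p was thus reached but did not pass the adjustment. In both genotypes with replicates the second non-stimulated library had a higher ratio than the first. The difference was 1.76 with both second non-stimulated libraries left out and 1.26 with both first ones left out, where the exact permutation test cannot go below 0.111.

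For miR-212 the strands were closer to equal. The ratio of miR-212-3p to miR-212-5p was 0.932 and 0.960 in wt, 0.952 and 2.00 in 3'RR-deficient and 0.0789 in Eµ-deficient cells without LPS, where the last rests on 6 against 76 counts. With LPS it was 2.18 and 1.23, 1.77 and 0.937, and 1.31. The conditions overlapped, and the difference in the mean log2 ratio was 1.07 (exact permutation p 0.194, adjusted p 0.194), which was 0.33 without the Eµ-deficient non-stimulated library.

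Between the hairpins, miR-132-3p exceeded miR-212-3p by 12.0 to 186.7 times in counts without and by 7.46 to 16.7 times with LPS. The mean log2 ratio differed by -1.41 with LPS (exact permutation p 0.0833, adjusted p 0.111). The 186.7 was the Eµ-deficient non-stimulated library, with 6 counts of miR-212-3p, and without it the difference was -0.77. In wt alone it was -0.29, with overlapping conditions. The ratio of miR-132-5p to miR-212-5p ranged from 1.66 to 12.0 without and from 0.600 to 3.13 with LPS, and its mean log2 value differed by -2.04 (exact permutation p 0.0556, adjusted p 0.111). In 3'RR-deficient cells LPS took it from 9.43 and 12.0 to 0.600 and 1.06, with no overlap, and in wt, at 6.02 and 3.00 against 3.13 and 1.54, the conditions overlapped. None of the 4 ratios passed after adjustment, which says little here, since fewer than 3 ratios at the smallest possible p could not have passed.

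**Figure D3:**
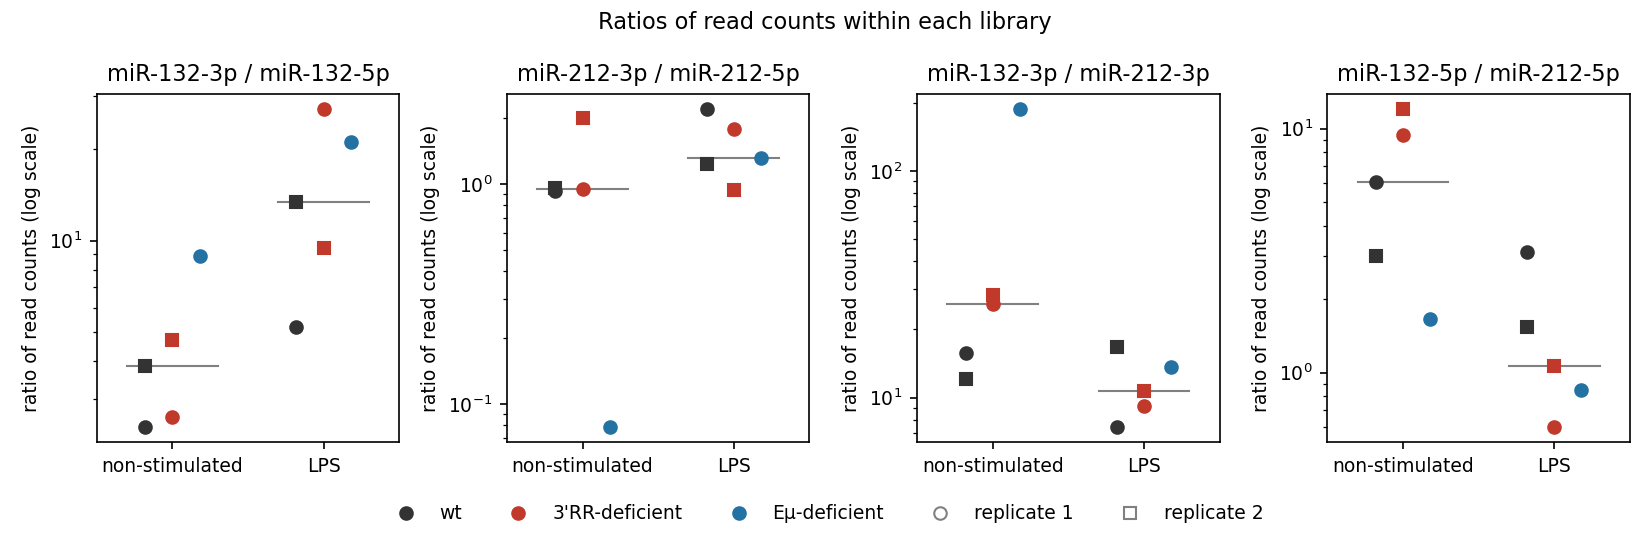
Ratio of read counts (log axis) within each of the 10 libraries for the arms of miR-132, the arms of miR-212, the 3p strands and the 5p strands, without and with LPS, with a grey line at the median of 5 libraries. The miR-132 arm ratio has a median of 3.85 without and 13.4 with LPS, and the single miR-212 arm ratio at 0.0789 is the Eµ-deficient non-stimulated library.

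The comparison of 3'RR-deficient with wt cells gave no call among the strands. Without LPS 0% of 720 features were called (9 with an unadjusted p under 0.05), and the log2 fold changes of 3'RR-deficient against wt cells were 0.08 (SE 0.62) for miR-132-3p, -0.09 (SE 0.72) for miR-132-5p, -0.94 (SE 0.82) for miR-212-3p and -1.42 (SE 0.82) for miR-212-5p, each with an adjusted p of 1. Between same-numbered libraries of that condition, the log2 ratios of 3'RR-deficient to wt were -0.74 and -1.11 for miR-212-3p. For miR-212-5p they were -0.77 and -2.06. These are differences between 6 and 44 counts. In CPM without TMM scaling the genotypes overlapped for miR-212-3p (4.73 in 3'RR-deficient replicate 2 against 3.31 in wt replicate 1). With LPS, where 0% of features were called as well (15 unadjusted), the changes were 0.40 (SE 0.62), -0.62 (SE 0.72), 0.51 (SE 0.79) and 0.88 (SE 0.78) in the same order, again with an adjusted p of 1. Over both conditions 0.101% of 988 features were called, and the strands lay between -0.38 (miR-212-3p, SE 0.71) and 0.16 (miR-132-3p, SE 0.41). The standard errors of these comparisons were 0.41 at the least, so small changes could not be told from none.

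The LPS responses of 3'RR-deficient and wt cells did not differ past the threshold for any of the 720 features (0%, with 5 unadjusted). The difference was 2.30 (SE 1.13, unadjusted p 0.0686, adjusted p 1.00) for miR-212-5p and 1.45 (SE 1.14) for miR-212-3p, against 0.31 (SE 0.88) for miR-132-3p and -0.53 (SE 1.02) for miR-132-5p. By unadjusted p miR-212-5p ranked 12th of 720.

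With 1 Eµ-deficient library per condition, the test against wt had to combine the conditions, and there 1.62% of 988 features were called and none of the strands. The log2 fold change was 1.20 (SE 0.49, unadjusted p 0.0285, adjusted p 0.323) for miR-132-3p, 0.95 (SE 0.73, adjusted p 0.651) for miR-212-5p, -0.18 (SE 0.91, adjusted p 0.95) for miR-212-3p and -0.19 (SE 0.65, adjusted p 0.922) for miR-132-5p. The call of miR-132-3p appeared with both second non-stimulated libraries left out (1.68, adjusted p 0.00615, with 71 features called) and with a replicate block fitted separately in each condition (1.28, adjusted p 0.00875, with 105 features called), against 16 features in the fit of all libraries without a block. Its level in the Eµ-deficient LPS library was 534.2 CPM from 6107 counts, and the log2 ratio to the single wt and 3'RR-deficient LPS libraries lay between 1.30 and 2.01. The miR-212 strands were also highest there, with log2 ratios of 0.73 to 1.88 (miR-212-3p) and 0.78 to 1.84 (miR-212-5p). The same library stood apart in markers of other cells: the 3 stromal markers (miR-143-3p, miR-145a-5p and miR-199a-3p) summed to 935.0 CPM against 18.2 to 67.7 CPM in the other LPS libraries, the 4 erythroid markers to 4076 CPM against 167.2 to 1150 CPM and the 2 myeloid markers to 511.9 CPM against 82.4 to 146.5 CPM. The summed level of the 2 endothelial markers, the arms of miR-126a, was lower there, at 20.8 CPM against 40.9 to 78.6 CPM, with miR-126a-3p below the other LPS libraries and miR-126a-5p among them. In the Eµ-deficient non-stimulated library the stromal sum was 534.3 CPM, within the 168.9 to 960.7 CPM of all non-stimulated libraries. The myeloid sum there was 5031 CPM, the erythroid sum 9290 CPM (2530 CPM at the lowest without LPS) and miR-132-3p was at 116.0 CPM. Each of these last values was the highest of the non-stimulated libraries. Whether other cells contributed to the level of miR-132-3p was not tested.

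Among 10 other microRNAs known from Toll-like receptor signalling, 4 were called higher and 1 lower with LPS over all genotypes, and 5 did not pass, beside 18.8% of all features called (117 higher and 69 lower). The median log2 fold change of the list was 1.69. Both arms of miR-155, an activator of B-cell responses, rose on the log2 scale, by 2.95 (miR-155-5p, adjusted p 0.000413) and 5.45 (miR-155-3p, adjusted p 8.72e-06). Both arms of miR-9 rose as well, by 3.63 (miR-9-5p, adjusted p 0.000608) and 3.93 (miR-9-3p, adjusted p 0.00927). The call lower was miR-125b-5p (-2.82, adjusted p 0.00191), which restrains macrophage cytokines. Its level in the Eµ-deficient LPS library was 122.9 CPM against 5.97 to 18.7 CPM in the other LPS libraries. The feedback inhibitor miR-146a-5p (1.00, adjusted p 0.185), miR-146b-5p (0.10, adjusted p 0.917), miR-147-3p (1.34, adjusted p 0.410), miR-21a-5p (2.04, adjusted p 0.0512) and miR-187-3p (-2.43, adjusted p 0.0623) did not pass. On this scale the change of miR-132-3p was smaller than those of the 4 called higher, whereas that of miR-212-3p lay between those of miR-21a-5p and miR-155-5p. Within wt and within 3'RR-deficient cells 1 of the list was called higher with LPS, beside 0.694% and 0.972% of all features, and none was called between genotypes. Under DESeq2 size factors and under total count scaling 5 of the list were called higher and 1 lower.

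**Figure D4:**
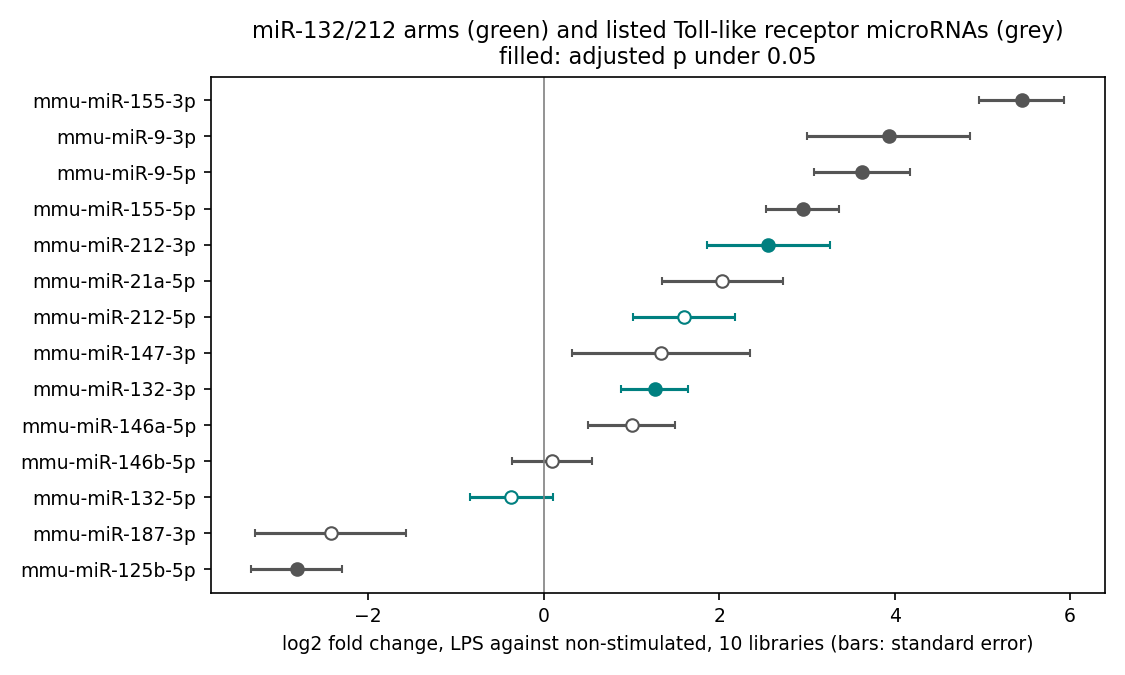
Log2 fold change with LPS over all 10 libraries, with its standard error, for the 4 strands of the cluster (green) and 10 listed microRNAs (grey), filled where the adjusted p is under 0.05. The 3p strands of the cluster, at 1.26 and 2.56, stand below miR-155-3p (5.45) and both arms of miR-9.

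Over the 10 libraries the pattern of miR-132-3p was most like that of miR-155-5p, with a Pearson r of 0.89 between log2 CPM, among 203 other mature microRNAs with a mean of at least 50 CPM. The next were miR-671-5p (0.85), miR-466b-3p (0.82), miR-222-3p (0.80) and miR-296-3p (0.76). Like miR-132-3p, miR-155-5p was highest in the Eµ-deficient LPS library, at 100675 CPM, and ranged from 6216 to 8083 CPM without LPS. For miR-212-3p the most alike were miR-5099 (0.85), miR-18a-3p (0.85), miR-155-5p (0.81), miR-92a-1-5p (0.81) and miR-1983 (0.80). Within the cluster r was 0.83 between miR-132-3p and miR-212-5p, 0.72 between the 3p strands, 0.68 between the arms of miR-212 and -0.30 between the arms of miR-132. The libraries share one scaling and 2 conditions, so these are descriptions of 10 points and carry no p.

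The nearest other mature microRNAs above the low counts of their neighbours are the arms of miR-22, a widely expressed microRNA, between chr11:75463734-75463755 (5p) and chr11:75463772-75463793 (3p). They gave no call with LPS over all genotypes, at 0.74 (SE 0.42, adjusted p 0.255) for miR-22-3p and 0.71 (SE 0.49, adjusted p 0.361) for miR-22-5p. Without LPS miR-22-3p was at 1710, 1545 and 1637 CPM in the first libraries of wt, 3'RR-deficient and Eµ-deficient cells and at 620.1 and 699.2 CPM in the second libraries of wt and 3'RR-deficient cells. The 3p strands of the cluster moved the other way between those replicates, with log2 ratios of the second to the first library of 0.41 and 0.55 for miR-132-3p and of 0.76 and 0.39 for miR-212-3p.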

How the data were processed

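Small RNA counts of 10 libraries were analysed. The deposited values are raw read counts per feature, without normalization. Per the labels the libraries were made with the NextFlex kit (17 PCR cycles, 75 nt reads). The submitters' processing notes name mm10, cutadapt 1.2.1 and Bowtie2. The counting program and the handling of reads with several matches are not given in the sources used here.

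The microRNA class was tested with edgeR 4.0.16 (R 4.3.3): TMM scaling, filterByExpr by group, quasi-likelihood F-test, two-sided, Benjamini-Hochberg over all features tested, threshold 0.05. Effects within a condition or genotype came from group means of 8 wt and 3'RR-deficient libraries (720 features, biological coefficient of variation 72.4%), effects across them from an additive fit of 10 libraries (988 features, 79.0%). All 4 strands passed both filters. The edgeR test gives no standard error, so each was derived as the absolute log2 fold change divided by the square root of its F statistic. A prior count of 2 entered the log2 ratios between libraries and a pseudocount of 0.5 the log2 ratios between strands. Wilson intervals cover counting error only, since PCR reads are not independent molecules. The fits were tested on simulated data. Alternatives included DESeq2 1.42.0. Named were all strands, a Toll-like receptor list, cell type markers, the 5 most alike microRNAs of each 3p strand, and microRNAs within 1 Mb. Members and lists were chosen with earlier results of these data known. Replicate numbers were not treated as pairs, since no label ties a number to shared mice: log2 replicate differences correlated with r = 0.66 between the non-stimulated groups, 0.10 between the LPS groups and -0.29 to -0.04 otherwise.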

Additional observations from a re-analysis of the deposited data

Results flagged for a closer look

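The ratio of miR-212-3p to miR-212-5p in the Eµ-deficient non-stimulated library (6 against 76 counts) lay far from the other 4 non-stimulated libraries, with a gap to the nearest of 0.768 of the range of all 5 on the log2 scale. It was the 1 such library among 16 sets of 5 libraries examined, where chance gives about 1 in 20. The level of miR-132-5p was lower with LPS in both 3'RR-deficient libraries (-0.95 on the log2 scale between means) and higher in the Eµ-deficient library (0.93); this difference was not tested. A piRNA cluster region annotated on the opposite strand over the microRNA cluster (chr11:75169082-75177925) had a median of 117 counts and was above 3 counts in 10 of 10 libraries. It was among the rows given to the fits of all RNA classes, but no result for it was examined above. Whether counting kept the strands apart is not given in the sources used here.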

How the results depend on the processing

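Direction and call of the LPS response over all genotypes stayed for miR-132-5p under all alternatives, while the 3p strands and miR-212-5p kept their direction and changed calls. The log2 fold change of miR-132-3p lost its call with total count scaling (1.07), no filter (1.12), all RNA classes tested together (0.66), both first non-stimulated libraries left out (0.91) and the Eµ-deficient libraries left out (1.03), and lay between 0.94 and 1.39 with 1 library left out. For miR-212-3p the call was lost with all RNA classes (2.05) and without both first non-stimulated libraries (2.21), with 1.84 to 2.92 when 1 library was left out. A replicate block within condition gave 1.59 (adjusted p 3.24e-05) for miR-132-3p and 3.49 (adjusted p 3.07e-06) for miR-212-3p. For miR-212-5p a call appeared with a filter of 10 CPM in 2 libraries (1.65), DESeq2 (1.49), a replicate block within condition (1.66) and both second non-stimulated libraries left out (1.63), with 1.26 to 1.87 when 1 library was left out. The number of strands called thus went from 2 to 1 (total counts, no filter, Eµ-deficient libraries left out) or 0 (all RNA classes, first non-stimulated libraries left out), was 3 under each setting that added miR-212-5p, and ranged from 0 to 3 over leave-one-out fits. Within 3'RR-deficient cells it was 2 with DESeq2 (97 features called in all), 2 with the replicate block within condition (90) and 1 without the first non-stimulated libraries (160), and for Eµ-deficient against wt 1 with that block (105) and 1 without the second ones (71). Over the features tested, leave-one-out fits included, the calls ranged from 107 to 374 for LPS over all genotypes, 0 to 195 in wt, 0 to 160 in 3'RR-deficient cells and 1 to 155 for Eµ-deficient against wt.

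The sources do not say whether libraries of the same number share mice, also between the conditions of a genotype. A plain replicate block changed no call of a strand in the LPS comparison over all genotypes (1.28 for miR-132-3p and 2.57 for miR-212-3p, adjusted p 0.0259 and 0.0172), while the calls over all features went from 5 to 27 in wt and from 7 to 11 in 3'RR-deficient cells. Paired by number, the arm ratio of miR-132 differed by 1.70 (exact permutation p 0.0625, the smallest possible). The difference was 1.76 without both second and 1.26 without both first non-stimulated libraries, where the test cannot reach 0.05, and ranged from 1.44 to 2.04 with 1 library left out, and the ratio of the 5p strands from -2.43 to -1.75.

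No reversed direction belonged to a called change. For 3'RR-deficient against wt without LPS, miR-132-3p was -0.042 with DESeq2, -0.043 with its size factors and -0.33 to 0.37 over leave-one-out fits, and miR-132-5p 0.040 with all RNA classes, 0.19 without the second non-stimulated libraries and -0.25 to 0.17 leaving out 1. With LPS miR-132-5p ranged from -1.10 to 0.10 leaving out 1. Over both conditions, without the second non-stimulated libraries, miR-212-3p was 0.030 and miR-212-5p 0.38, and leaving out 1 gave -0.79 to 0.051 and -0.65 to 0.072. For Eµ-deficient against wt, miR-132-5p and miR-212-3p were 0.088 and 0.10 with total counts, 0.054 and 0.090 with the 10 CPM filter, 0.0075 and 0.035 with mature microRNAs alone, 0.025 and 0.11 without the first and 0.090 and 0.44 without the second non-stimulated libraries, and ranged from -0.92 to 0.45 and -2.69 to 1.05 leaving out 1. In wt miR-212-5p responded by -0.11 with all RNA classes, -0.15 without the first non-stimulated libraries and -0.34 to 0.81 leaving out 1, and the difference of responses of miR-132-5p ranged from -0.92 to 0.15. The cause of these changes was not tested. Counts of 6 to 76 limit the miR-212 strands without LPS.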
